A study of Mus musculus with 3 samples.

Results

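Sites whose m5C level was lower in the 1-cell embryo than in the MII oocyte were described here. A site was included when it stood in the called m5C lists of both stages, had a coverage of 50 reads or more in each, and had a lower m5C level (the percentage of reads that kept a C after bisulfite conversion) in the embryo. Members were therefore chosen by the measured MII and embryo levels, and their fall is a description with no test. The rule found 898 sites in 738 genes. It started from 8015 sites listed in both stages, of which 5022 in 2501 genes had the 50 reads in both libraries (deep shared sites), out of 40298 distinct sites in the series. The members made up 17.9% (95% Wilson interval 16.8 to 19.0%) of the deep shared sites, and 4124 deep shared sites were not lower in the embryo.

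The series profiled maternal mRNA of wild-type C57BL/6J females aged 7 to 8 weeks by RNA bisulfite sequencing, with 1 library per stage. Fully grown oocytes at the germinal vesicle (GV) stage were collected 48 h after 10 IU of PMSG. Metaphase II (MII) oocytes were collected 12 h after 5 IU of hCG, which followed 10 IU of PMSG by 44 to 48 h. The labels were used here. The study's methods state a larger hCG dose for the MII oocytes and a wider age range for the oocyte donors. For the 1-cell embryos they describe ovulation induced as for the oocytes, where the labels give another PMSG dose. The 1-cell embryos came from mated females 24 h after 5 IU of hCG given after 5 IU of PMSG, and about 200 embryos went into the library. With 1 library per stage, no difference had a replicate check, and stage cannot be told apart from library, pool of females and collection protocol. Intervals are 95% Wilson intervals of the reads at a site and cover counting error only. Reads carry no molecular identifiers, so copies of 1 molecule count as separate reads. The listed sites held 4475058 GV, 5285011 MII and 2616279 embryo reads, with a median of 121, 107 and 58 reads per site. All of the 11 oocyte marker genes checked had a called site in the embryo. Of these, 10 had one in the MII oocyte and 8 in the GV oocyte. Cumulus cell markers had called sites in 0, 2 and 1 of 18 genes in the GV oocyte, MII oocyte and embryo. A called site depends on methylation as well as expression, so these counts cannot show how much cumulus RNA was present. The study reports only low methylation in the follicle cells around the oocyte. In the study's supplementary table the GV and MII read counts are those of the deposited lists at the sites shown, but the embryo read counts and levels are others at most sites; the membership and all embryo values below rest on the deposited embryo list.

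5-methylcytosine (m5C) in mRNA is placed by methyltransferases of the NSUN family. The best known mRNA writers are NSUN2, whose targets tend to have several G after the C (called Type I), and NSUN6, which recognises a CUCCA sequence (called Type II). A fully grown oocyte is transcriptionally silent and lives on stored mRNA, much of which is degraded during meiotic maturation and after fertilization. The m5C level of a site is a share of the molecules that are present, so it moves both with writing of the mark and with unequal loss of marked and unmarked molecules, and these cannot be told apart in such data. Here the class was read from the sequence: CUCNA, counted from the methylated C on, made a site Type II, and every other sequence Type I.

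The sequences around the sites show what fell. They are the GRCm38 (RefSeq) bases on the transcribed strand, 10 bases to either side of the site, with U for T, and the capitals mark the methylated C and the 4 bases after it. The first set holds the 8 members with the largest falls, shown because they carry the extreme of the pattern, and all of them are Type I.

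Nrg1, chr8:31968067, minus strand, coding sequence: gguucaagaaCGGGAaugagc
Ccdc186, chr19:56787617, minus strand, 3′ UTR: uucccgagugCAGGGcugucu
Sys1, chr2:164464654, plus strand, 3′ UTR: uugggcugcuCAGACcuccag
Spint1, chr2:119237994, plus strand, coding sequence: ggccaccuucCUGGGuucccc
Psmb1, chr17:15476117, minus strand, coding sequence: uucauuucugCAGCCgagagg
Galk2, chr2:125983173, plus strand, coding sequence: agcuuauuacCAGGGgaacac
Fchsd2, chr7:101283613, plus strand, 3′ UTR: gcaccuucugCAGGUcaggga
Paqr4, chr17:23737960, minus strand, coding sequence: gccugcagacCGUGGcuucgc

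The second set holds the Type II members whose MII and embryo intervals were separate, with 1 left out, and all of them carried CUCCA.

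Snph, chr2:151594212, minus strand, coding sequence: caggggauccCUCCAacaccu
Rapgefl1, chr11:98851455, plus strand, 3′ UTR: ccucucugcuCUCCAagggag
Nup188, chr2:30337274, plus strand, coding sequence: cugugagacuCUCCAagaaga
Tiam1, chr16:89865347, minus strand, coding sequence: ccucgccagcCUCCAgggcgg
Tbc1d1, chr5:64311083, plus strand, coding sequence: ggagagcuccCUCCAcgcucc
Rph3a, chr5:120962456, minus strand, coding sequence: ggguugagacCUCCAacaacc
Rnf114, chr2:167515859, plus strand, 3′ UTR: ggcaccacgcCUCCAcagugg
Rragc, chr4:123935733, plus strand, 3′ UTR: uuaguccuccCUCCAggguca
Oas1c, chr5:120808045, minus strand, coding sequence: aggagcccaaCUCCAggucuc

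The third set pairs a member with a deep shared site of the same gene that lay within 40 bases and was higher in the embryo. It is shown because neighbouring sites of a gene moved in opposite directions. The lists do not link sites within 1 molecule, and the higher site of Snph had overlapping MII and embryo intervals.

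Ndfip2 lower, chr14:105258761, plus strand: cggcgccgauCGGCGagcgac
Ndfip2 higher, chr14:105258764, plus strand: cgccgaucggCGAGCgacgcg
Uhrf1 lower, chr17:56322905, plus strand: gugcuucauuCCAGGgguggc
Uhrf1 higher, chr17:56322906, plus strand: ugcuucauucCAGGGguggcc
Snph lower, chr2:151632170, minus strand: gccggccggaCUGCGgagggc
Snph higher, chr2:151632167, minus strand: ggccggacugCGGAGggcgag
Entpd6 lower, chr2:150760174, plus strand: acggcacagaCGAAGguguuu
Entpd6 higher, chr2:150760138, plus strand: ccuuccuuguCGGGGaugacu
Use1 lower, chr8:71369173, plus strand: cagucagcauCCGAGcuagac
Use1 higher, chr8:71369190, plus strand: agaccucgucCUCCAgaggca

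Most falls were small. Over the 898 members the median level was 25.7% (quartiles 18 and 39.1%) in the MII oocyte and 18.4% (13.2 and 31.3%) in the 1-cell embryo, whereas at the other deep shared sites it was 20.7% and 38.4%. The fall had a median of 4.53 points (quartiles 1.86 and 8.86; 95% interval of the median 4.14 to 4.93). It reached at least 5 points at 415 members, at least 10 points at 192 and at least 20 points at 54, and was under 1 point at 141. The embryo level was below 15% at 328 members, close to the 10% below which no site is listed, so a site that fell under 10% in the embryo could not be a member.

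The MII and embryo intervals were separate at 110 members in 107 genes, which is 12.2% (10.3 to 14.6%) of the members. With 99% intervals 56 members were separate, and with reads divided by 5, as if 5 reads were copies of 1 molecule, 9 were, so most of these calls, and of those for named genes below, rest on reads being independent. Lower with separate intervals was thus called at 2.19% of the 5022 deep shared sites, and each of these sites is a member by construction, so nothing is read from the difference between the shares. For comparison, 2359 deep shared sites were higher in the embryo with separate intervals. At the 110 sites the median level was 35.8% in the MII oocyte and 17.5% in the embryo, and the smallest fall was 4.49 points. At 59 members less than 50% of the MII level remained.

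**Figure D1:**
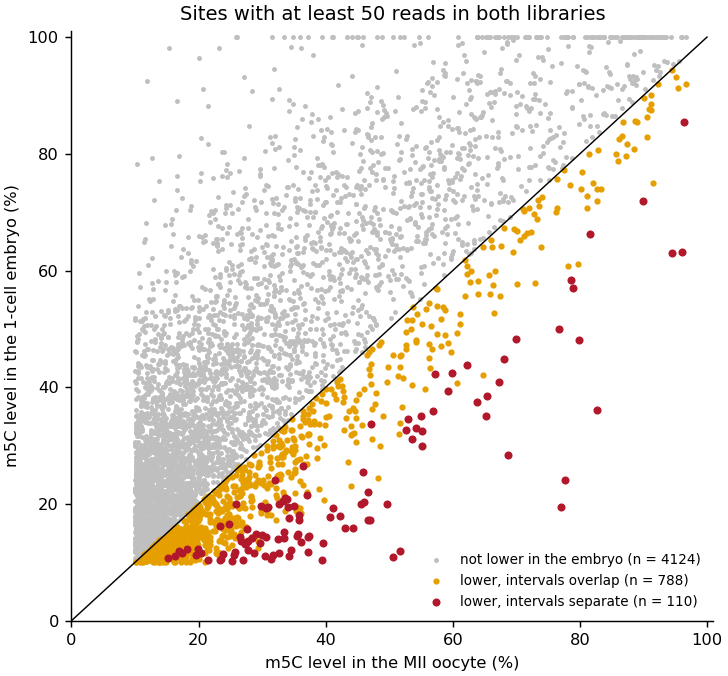
The m5C level in the MII oocyte (x axis, %) and in the 1-cell embryo (y axis, %) at the 5022 deep shared sites, 1 point per site, with the diagonal of equal levels. The 898 members lie below the diagonal, and the 110 with separate intervals (red) had MII levels of 15.2 to 96.3%, while most sites lie above the diagonal.

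The edge of the rule runs through sites that did not differ measurably. The smallest falls were at Gys1, a glycogen synthase gene, with 11.5% in the MII oocyte and 11.5% in the embryo (0.00575 points apart), at Bcar3 with 18.3% in both and at Iqsec1 with 13.2% in both. Just outside were Phf1, whose level was 14% in both, and the smallest rises, at Tet3 with 11.3% in both, Nlrp4f with 41.5% in both and Nfx1 with 14.1% in both. The read limit had a similar edge: 61 members had 50 to 54 embryo reads, and 58 sites that were lower in the embryo had 45 to 49 embryo reads and stayed out. The share of members was 20.0% (18 to 22.1%) of the deep shared sites with 50 to under 75 embryo reads, 18.5% at 75 to under 100 and 21% (18.6 to 23.6%) at 100 to under 150. It was lower at greater depth, with 15.5% (13.4 to 17.9%) at 150 to under 300 and 11.8% (9.63 to 14.4%) at 300 or more.

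The largest fall of all was at Nrg1, which encodes neuregulin 1, an EGF-family ligand of ErbB receptors. The site in exon 2 of 13 was at 62.0% in the GV oocyte (184 reads), 77.0% in the MII oocyte (135 reads) and 19.4% in the embryo (67 reads; 11.7 to 30.4%), a fall of 57.6 points. At Ccdc186, in the 3′ UTR, the levels were 51.4%, 77.6% and 24.1% (58 embryo reads) in the same order. At Sys1, a gene of Golgi membrane traffic, they were 75.9%, 82.7% and 36.1% (83 embryo reads). Each of these embryo intervals lay below both oocyte intervals.

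Among sites with at least 100 reads in both libraries, Spint1, which encodes a membrane-bound inhibitor of serine proteases, fell most. Its GV level was 63.3% (57.6 to 68.6%, 294 reads), its MII level 68.7% (62.7 to 74.1%, 252 reads) and its embryo level 28.3% (21 to 37.0%, 120 reads), a fall of 40.3 points. The oocyte intervals overlapped each other and both lay above that of the embryo. At Paqr4 the GV level was 53.1%, the MII level 79.8% (71.1 to 86.4%) and the embryo level 48.1% (38.8 to 57.5%). Here the MII oocyte stood above the other stages and the GV and embryo intervals overlapped. At Entpd6, which encodes an ectonucleotidase, the site in exon 5 of 14 was at 32.7% (553 reads), 39.5% (395 reads) and 10.4% (154 reads; 6.50 to 16.2%). The embryo level was thus close to the 10% floor of the lists.

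The other members of the 20 largest falls at this depth lay in genes of varied function. Pde1b, a calmodulin-dependent phosphodiesterase gene, was at 63.9%, 76.8% and 50% in the GV oocyte, MII oocyte and embryo (114 embryo reads). Zdhhc8, a palmitoyltransferase gene, was at 60.1%, 70.0% and 48.2% (168 embryo reads). Smurf1, a ubiquitin ligase gene, was at 17.7%, 35.7% and 14.8% (108 embryo reads). In Pde1b and Smurf1 the embryo interval overlapped that of the GV oocyte, and in Zdhhc8 it ended just below it. Ndfip2, whose product activates Nedd4-family ubiquitin ligases, was at 52.2%, 54.3% and 33.1% (133 embryo reads), with like levels in both oocytes and a lower one in the embryo. Hip1r, an adaptor between clathrin and actin, was at 27.9%, 35.1% and 19.6%.

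Nup160, a nuclear pore component, was at 51.5%, 63.8% and 37.5% in the GV oocyte, MII oocyte and embryo. Nup188, also of the nuclear pore, was at 54.2%, 62.3% and 43.9% at a Type II site with 187 embryo reads. Brwd1, a chromatin reader, was at 37.5%, 53.5% and 31.1%. The transcription factor gene Mybl2 was at 24.4%, 33.4% and 15.2% with 1983, 1499 and 197 reads, and its embryo interval lay below both oocyte intervals. Nrf1, which encodes a transcription factor of nuclear genes for mitochondria, was at 47.6%, 59.9% and 42.5%, and Meaf6, a subunit of histone acetyltransferase complexes, was at 23.9%, 30.7% and 14.4%. Bag6, a chaperone gene, was at 26.1%, 28.8% and 11.6%, Naa11, an N-terminal acetyltransferase gene, at 39.8%, 52.7% and 32.7%, Ofd1, a centriole gene, at 27.0%, 32.5% and 14.0%, and 4930562C15Rik at 30.5%, 37.0% and 21.6%. All of these had a higher MII than GV level in the point estimate.

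Aes, a Groucho-family corepressor gene, went down at both steps. It was at 72.1% in the GV oocyte (272 reads), 56.9% in the MII oocyte (367 reads) and 35.8% in the embryo (106 reads; 27.4 to 45.3%), with no overlap between the 3 intervals. It is the only member of the 110 with separate intervals whose level was also lower in the MII than in the GV oocyte with separate intervals. Use1, a SNARE gene of the endoplasmic reticulum, was at 74.6%, 65.3% and 35.1%, and Psmb1, a proteasome subunit gene, at 56.0%, 51.8% and 12.0% (1220, 711 and 50 reads). In both the levels stepped down in the same order, with overlapping oocyte intervals.

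**Figure D2:**
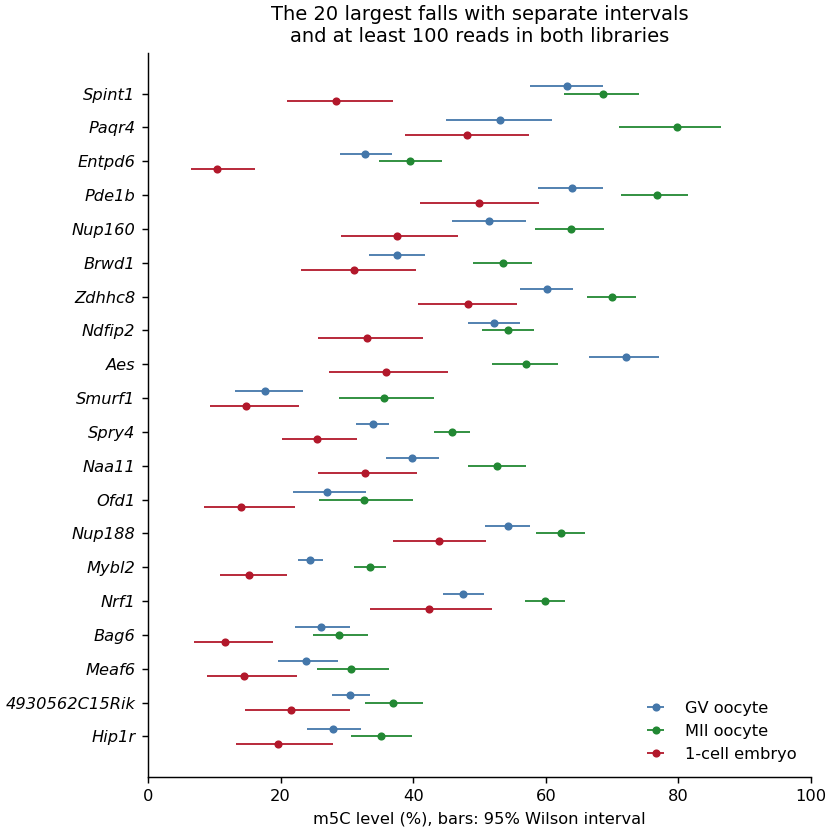
m5C level (x axis, %) with 95% Wilson intervals in each of the 3 libraries at the 20 members with the largest falls among those with separate MII and embryo intervals and at least 100 reads in both libraries. The MII level is the highest of the stages at 19 of the 20, and Aes is the exception, with its highest level in the GV oocyte.

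The members with the most reads fell little. Ooep, a gene of the subcortical maternal complex, had a GV level of 12.6%, an MII level of 16.1% and an embryo level of 15.9% with 10550, 8354 and 4013 reads. Bpgm was at 22%, 24.1% and 23.4%, and Bmp15, which encodes an oocyte-secreted growth factor, at 12.5%, 14.1% and 13.1%. Gm47305, which the annotation types as a miRNA gene, was at 16.1%, 15.1% and 14.0% with 18411 MII and 11130 embryo reads; near-identical copies elsewhere in the genome could share its reads, so its level is uncertain. Their MII and embryo intervals overlapped. Among the 5 members with most reads, Tcl1, an Akt coactivator gene, was the exception: its 3′ UTR site was at 10.5%, 15.2% and 10.7% (9.69 to 11.9%, 3083 reads), a small fall with separate intervals. Tcl1 has close paralogues, so its reads are uncertain too.

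In the embryo the members stood on both sides of their GV level. A member was listed in the GV oocyte at 766 of 898 sites (85.3%), against 3093 of 4124 other deep shared sites (75%), and all 110 members with separate intervals were listed. Where listed, the members' median GV level was 21.7%, their MII level 28.3% and their embryo level 20.5%, and the other sites 20.1%, 26.6% and 45.8%. The median embryo level minus GV level was close to 0 in the members (0.48 points above GV), whereas the other sites stood 20.9 points above GV. The GV oocyte was used by no part of the rule, but its differences share the MII or embryo library with the rule and carry no test. The rule held the embryo level of the members under their MII level, so nothing is read from their nearness to the GV level. The rule also took fewer sites of low MII level. Members were 13.4% of the deep shared sites at MII levels of 10 to 20% and 22.8% at 20 to 40%. Nothing is thus read from the difference in GV listing.

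Against the MII oocyte, the GV level was lower at 712 of the 766 members (93.0%), against 86.6% of the other sites listed in GV, and the median rise from GV to MII was 6.71 points against 5.54. The rise had separate intervals at 299 members (39.0%), and 36.5% of all deep shared sites listed in the GV oocyte were called so. A lower MII level with separate intervals was seen at 2 members, where 0.726% of all these sites were called. The share of members with separate GV and MII intervals was thus near the background. The share with a lower GV level of any size was higher than at the other sites (90.9 to 94.6% against 85.3 to 87.7%). The rule favours high MII levels, so nothing is read from this difference or from the larger median rise.

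Against the embryo, the GV level was higher at 350 of the 766 members. The embryo lay below the GV oocyte with separate intervals at 33 members (4.31%), and 0.855% of all deep shared sites listed in the GV oocyte were called so, all of them members. The embryo lay above the GV oocyte with separate intervals at 40 members (5.22%), against 65.1% of all these sites. Both shares follow from an embryo level that the rule held under the MII level, and nothing is read from them. At 30 members the embryo interval lay below both oocyte intervals.

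Of the members below the GV oocyte, those with the largest drop from GV included sites of high level in both oocytes. Pou2f1, the gene of the transcription factor Oct-1, was at 91.8%, 94.5% and 63.0% (54 embryo reads). Fchsd2, which acts in endocytosis and actin assembly, was at 90.1%, 96.0% and 63.2% (57 embryo reads) in its 3′ UTR. Over 90% of the reads kept the C in both oocytes, and a smaller share did in the embryo. Akr1a1, an aldehyde reductase gene, was at 46.4%, 41.1% and 19.2% (52 embryo reads) in its 5′ UTR. These embryo values rest on 50 to 60 reads each.

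**Figure D3:**
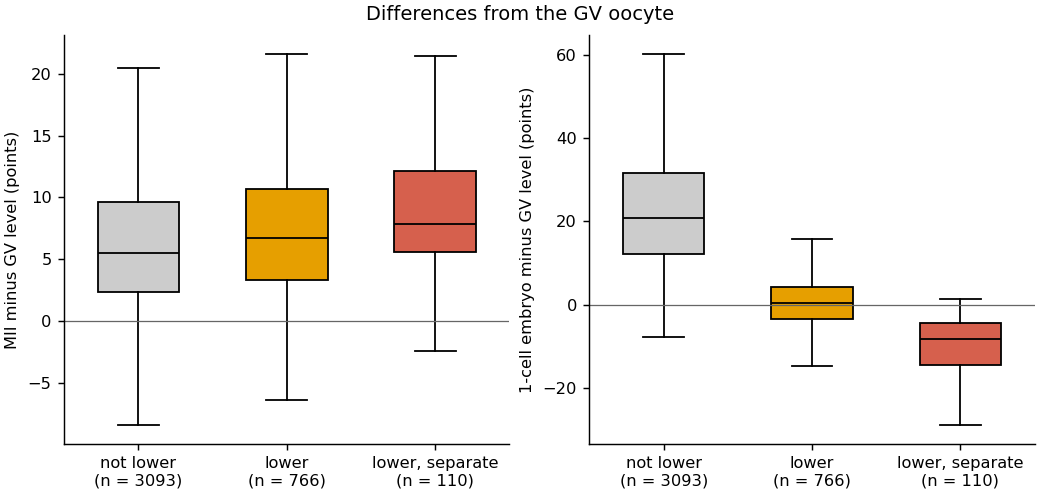
Differences from the GV oocyte in points of m5C level, for deep shared sites listed in GV: MII minus GV (left) and 1-cell embryo minus GV (right). Boxes show the quartiles with the median, and whiskers reach the farthest site within 1.5 times the box height. The median MII minus GV difference was 6.71 points in the members and 5.54 in the other sites. In the embryo the members lay near 0, and the other sites had a median 20.9 points above GV. The rule held the members' embryo level under their MII level, so nothing is read from this contrast.

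Among deep shared sites listed in the GV oocyte, the share of members hardly varied with the GV level. The share of deep shared sites that were members was 18.8% (17.1 to 20.6%) at GV levels of 10 to 20%, 21.6% (19.4 to 24.0%) at 20 to 40%, 19.1% at 40 to 60%, 20.3% at 60 to 80% and 21.1% (14.0 to 30.6%) at 80% or more. All of these intervals overlapped. Listed sites of low and of nearly full methylation in the GV oocyte were thus found among the members at like shares. Sites not listed in GV are outside these classes. Members were listed more often than the other sites (85.3% against 75%), so the share of members was lower among sites not listed.

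Site class showed a larger difference than GV level did among the listed sites. Members were 67 of 247 Type II deep shared sites (27.1%, 22 to 33.0%) and 831 of 4775 Type I sites (17.4%, 16.4 to 18.5%), and the intervals did not overlap. Type II sites made up 7.46% of the members and 4.37% of the others. The difference lay at GV levels of 20 to 40%, where 34 of 65 Type II sites (52.3%, 40.4 to 64.0%) and 230 of 1157 Type I sites (19.9%, 17.7 to 22.3%) were members. At GV levels of 10 to 20% the shares were 18.9% and 18.8%, and at 40% or more 23.5% and 19.3%. At 50 to under 100 embryo reads, 23.3% (16.7 to 31.7%) of Type II and 19.2% (17.6 to 20.9%) of Type I sites were members. These intervals overlapped. At 100 embryo reads or more the shares were 30.7% (23.4 to 39.2%) and 15.9% (14.5 to 17.3%). The bins were set with the members known, and the shares are a description.

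**Figure D4:**
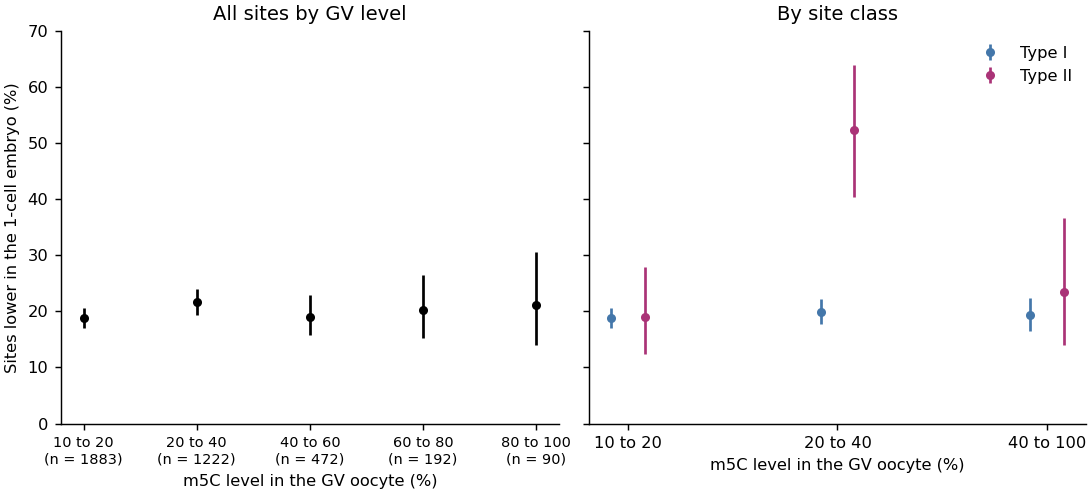
Share of deep shared sites listed in GV that were lower in the 1-cell embryo (y axis, %), by m5C level in the GV oocyte (x axis, %). Panels show all of these sites (left) and Type I and Type II sites (right), with 95% Wilson intervals. The share stayed near 20% in every level class, except for Type II sites at 20 to 40%, where it was 52.3%.

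Many of the same sites allow a comparison of the classes within genes. It uses the MII and embryo levels of the rule, so it describes the same contrast and is not a second line of evidence. In 160 genes that held deep shared sites of both classes, 54 of 164 Type II sites (32.9%) and 81 of 438 Type I sites (18.5%) were members. The median change from MII to embryo was a rise of 3.18 points at the Type II sites and of 9.10 points at the Type I sites of these genes. In 109 of the 160 genes the median change of the Type II sites lay below that of the Type I sites, with a median difference of 8.01 points. The 10 genes with a Type II member of separate intervals held 34 Type I sites. Of these, 18 were higher and 2 lower in the embryo with separate intervals. Of all 5022 deep shared sites, 2359 were higher in this way. These genes were picked by their Type II site.

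The Type II members with separate intervals covered a wide range of levels. Snph, which encodes syntaphilin, a mitochondrial anchor, was at 29.9%, 39.6% and 13.3% (75 embryo reads) in the GV oocyte, MII oocyte and embryo. Rapgefl1 was at 33.2%, 37.2% and 14.3% (56 embryo reads). Tiam1, a gene of a Rac activator, was at 74.3%, 81.6% and 66.3% (86 embryo reads). The embryo interval lay under the GV interval in Snph and Rapgefl1 and overlapped it in Tiam1. Below these in size of fall were Tbc1d1, a Rab GTPase-activating protein gene, at 51.3%, 57.2% and 42.3%, Rph3a, a Rab effector gene, at 21%, 27.3% and 13.2%, and Rnf114, a ubiquitin ligase gene, at 27.2%, 30.7% and 19.2%. Rragc, a Rag GTPase gene of the mTORC1 pathway, was at 25.3%, 32.1% and 24.1%, and Oas1c, of the oligoadenylate synthetase family, at 16.8%, 20.0% and 12.3%.

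Apart from site class, which the rule did not use either, the position and predicted fold of the members were close to those of the other deep shared sites. They lay in coding sequence at 73.6% against 74.7% of the others, in 5′ UTR at 11.5% against 10.7% and in 3′ UTR at 13.3% against 13.2%. The median position along the transcript was 33.0% against 33.8% of its length from the 5′ end. The GC content of the window around the site (50 nt to either side) had a median of 58.4% in both, and the predicted folding energy of these windows was −31.5 against −30.7 kcal per mol. The site itself was paired in the predicted fold at 58.5% of the members and 60.4% of the others. Of the 4 bases after the C, 2.04 were G on average in the members and 2.13 in the others. No G followed the C within 4 bases at 9.13% (7.42 to 11.2%) of the members and 5.73% (5.06 to 6.48%) of the others, and at 1.81% and 1.42% among Type I sites.

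Median depth and background conversion differed modestly between members and other sites, and the share of members was lower at the greatest embryo depth, as given above. The median coverage of the members was 324 reads in the MII oocyte and 100 in the embryo, against 373.5 and 110 at the other sites. The ratio of embryo to MII reads at a site had a median of 0.342 in the members, 0.343 in the others and 0.304 in the 110 with separate intervals. The background rate of unconverted C that the deposited p-values imply for a gene had a median of 0.422% in members and 0.397% in others in the MII oocyte, and of 0.451% and 0.485% in the embryo. In the 110 sites the MII rate was 0.519%, from the 62 sites whose p-value allowed it, and the embryo rate 0.445%, from 108. These medians were under the falls of all 110 sites, and their part in the falls was not tested.

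Members were spread thinly over genes. There were 613 genes with 1 member, 99 with 2, 19 with 3 and 7 with 4 or more. Of 1201 genes with several deep shared sites, 31 had only members, 502 had members and other sites, and 668 had none. In the genes with a member, 67 of 442 shared sites under 50 reads were lower in the embryo (15.2%, 12.1 to 18.8%), against 121 of 826 (14.6%, 12.4 to 17.2%) in genes with deep shared sites and no member. The shallow sites were not used by the rule, and the intervals of the shares overlapped. Sites under 50 reads have a large counting error, and whether a fall goes with the gene was not tested. Of 183 pairs of deep shared sites within 10 nt of each other, both sites were members in 3 and 1 site in 53.

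Arid1b, a subunit gene of the BAF chromatin remodeller, and Insm1, a zinc-finger transcription factor gene, had the most members, with 5 of 14 and 5 of 8 deep shared sites. Abcb8, a mitochondrial ABC transporter gene, and Socs7 had 4 of 10 each, and Tbc1d1 had 4 of 9. Fam131a, with 4 of 7, and Cabin1, with 4 of 5, also had 4 members. In Arid1b the 5 members had overlapping MII and embryo intervals, and 2 other sites were higher in the embryo with separate intervals. In Insm1, a gene of a single exon, site 1 in 5′ to 3′ order was at 14.9%, 23.4% and 10.5% and site 3 at 86.9%, 96.3% and 85.4%, both lower in the embryo with separate intervals. The next site, 95 nt after site 3 and of Type II, was at 57.3%, 63.7% and 92.6%. The last, of Type I, was at 32.8%, 43.3% and 74.3%. Sites on the same transcript thus moved in opposite directions from like depth.

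Opposite changes with separate intervals were found in 53 genes. They formed 64 pairs of consecutive sites with such changes, 8 of them within 50 nt. Of all 5022 deep shared sites, 2359 were higher in the embryo with separate intervals. A rising site near a falling one is therefore common, and nothing is read from these counts. In Uhrf1, which encodes the factor that guides maintenance DNA methylation, the first C of a CC in the 3′ UTR was at 17.3%, 23.4% and 16.3% with 934, 701 and 375 reads. The second C was at 20.5%, 26.2% and 52.8% with 920, 694 and 375 reads. The levels were alike in both oocytes and apart in the embryo, at nearly the same reads. In Ndfip2 the site 3 nt after the member was at 17.6%, 18% and 33.6%, where the member went from 54.3% in the MII oocyte to 33.1%. In Entpd6 the site 36 nt before the member was at 10.1%, 10.4% and 29.8%, so that the order of the neighbours was reversed in the embryo. In Use1 the Type II site 17 nt after the member was at 15.8%, 15.8% and 33.3%, close to the 35.1% of the member.

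Snph, Rph3a and Insm1 were the genes with 2 members of separate intervals each, and each also held a site that was higher in the embryo with separate intervals. The 5′ UTR member of Snph was at 37.6%, 43.1% and 15.9%, and the site 3 nt after it in the transcript was at 23.8%, 38.4% and 50% with the same 82 embryo reads. The latter had overlapping MII and embryo intervals. The 3′ UTR site of Snph went from 24.0% in the MII oocyte to 54.5% in the embryo. In Rph3a the Type I member was at 34.7%, 46.7% and 22.1%, and the remaining site was at 46.9%, 58.9% and 80.4%. In Abcb8, site 3 in 5′ to 3′ order fell from 78.9% to 56.9%, and site 4 rose from 25.8% to 54.4%. In Nrg1, too, a site in the first exon rose from 10.5% to 53.8%, where the site in exon 2 fell by 57.6 points.

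**Figure D5:**
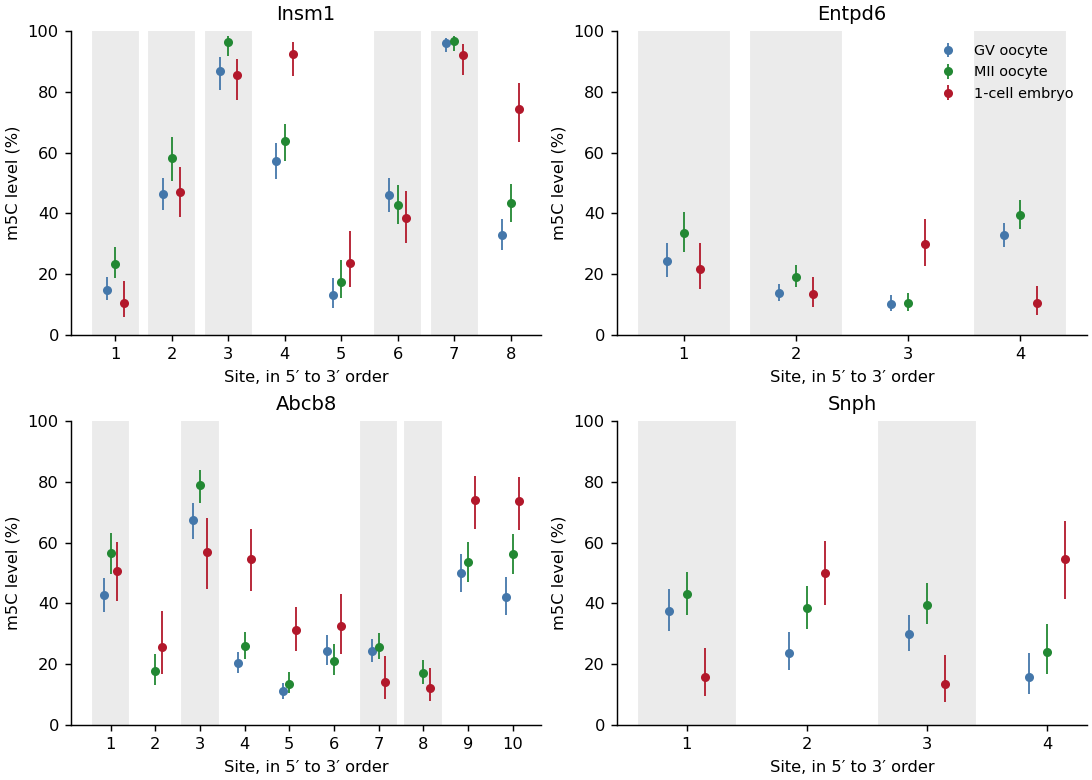
m5C level (y axis, %) with 95% Wilson intervals in each of the 3 libraries at each deep shared site of Insm1, Entpd6, Abcb8 and Snph, in 5′ to 3′ order (x axis, not to scale in distance). Grey bands mark the members. In each gene sites that fell stand beside sites that rose, such as sites 3 and 4 of Insm1.

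Gene lists of the oocyte and of mRNA control held members at shares near the 17.9% of all deep shared sites. Of the oocyte and maternal-effect genes, 12 of 31 genes with deep shared sites had a member, and 13 of 64 sites were members (20.3%, 12.3 to 31.7%), 3 with separate intervals, where 2.19% of all deep shared sites were called so. These were Tcl1, Uhrf1 and Dnmt1, the maintenance DNA methyltransferase gene, whose site in exon 36 of 39 was at 18.3%, 24.8% and 16.6% (193 embryo reads). A second Dnmt1 member was at 22.3%, 27.9% and 24.6%, with overlapping MII and embryo intervals. Khdc3, of the subcortical maternal complex, was at 22.1%, 31.4% and 23.4% with 167 embryo reads, also with overlapping intervals. Npm2, a histone chaperone of the egg, was at 18.7%, 27.1% and 25.9%, and Nlrp14 was at 26.4%, 32.4% and 29.9% at a Type II site.

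In the list of translation control and mRNA decay, 12 of 59 sites were members (20.3%, 12.0 to 32.3%) and 1 had separate intervals (background 2.19%). It was at Cpeb3, which encodes a protein that binds the cytoplasmic polyadenylation element, at 39.2%, 46.7% and 17.3% (52 embryo reads). Cnot6l, a deadenylase gene, was at 45.1%, 57.5% and 54% at 1 of its members, Cnot11, of the same complex, at 28.6%, 40.5% and 35.1%, and Edc4, a decapping cofactor gene, at 22.2%, 33.0% and 25% at 1 of its members. The embryo level lay between the GV and MII levels at these 3 sites, with overlapping MII and embryo intervals. It lay below both oocyte levels at the other member of Edc4 (23.3%, 25.6% and 17.6%) and at the second member of Cpeb3 (23.9%, 19.6% and 17.4%). Lsm14b, of a family of mRNA-storage proteins, had 2 Type II members at 19.7%, 23.9% and 20.6% and at 25.9%, 32.2% and 31.9%.

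In the list of chromatin and transcription regulators, 17 of 76 sites were members (22.4%, 14.5 to 32.9%) and 2 had separate intervals (background 2.19%). Eed, of the Polycomb complex PRC2, was at 53.2%, 65.4% and 38.5% (65 embryo reads) and Smarca5, an ISWI remodeller gene, at 22%, 34.2% and 17.6% (91 embryo reads), both in the 5′ UTR. The embryo intervals of both overlapped those of the GV oocyte. The list of m5C writers, readers and erasers had 4 members of 21 sites, all in Tet3, a dioxygenase gene for oxidation of 5-methylcytosine, and in Ybx2, a germ-cell mRNA-binding protein gene, with no separate intervals. Cell cycle and meiosis genes had 4 members of 38 sites (10.5%, 4.17 to 24.1%) in Ccnb2, Mastl, Plk1 and Ppp2r1a, and ribosomal protein genes had 4 of 27 (14.8%, 5.92 to 32.5%), all in genes of the mitochondrial ribosome. The interval of each list's share held 17.9%, and no list can be told apart from all deep shared sites at these numbers.

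Spry4, which encodes a Sprouty inhibitor of receptor tyrosine kinase signalling, was the Type II member with the most embryo reads among those with a fall of over 20 points. Its 3′ UTR site was at 33.9% in the GV oocyte (1378 reads), 45.9% in the MII oocyte (1315 reads) and 25.4% in the embryo (228 reads; 20.2 to 31.5%), a fall of 20.4 points. The MII interval lay above those of the other stages.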

How the data were processed

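RNA bisulfite sequencing of mouse oocytes and embryos was available as 1 list of called m5C sites per stage. The deposited read counts (coverage) are whole reads per site, the deposited m5C level is a fraction of these reads, and the p-value the authors gave came from a binomial test that used each gene's own conversion rate. The tools of the submitters' processing notes include cutadapt 1.13, Trimmomatic 0.36, HISAT2 2.10 and Bowtie2 2.2.9, on GRCm38. All listed sites had at least 20 reads, 5 unconverted reads and a level of 10%. Lists were joined by position and strand. The labels give polyadenylated RNA where the study's methods give depletion of rRNA, and duplicate reads could not be removed from lists.

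Sites of both lists with 50 reads in both and a lower embryo level were taken. Unconverted reads were rebuilt as coverage times level, and 95% Wilson intervals were computed with SciPy 1.17.1. Intervals that did not overlap were called separate. No statistical test was run, since each stage had 1 library. The background rate per gene was the rate that gives the deposited p-value; 189 members had an MII p-value too small (below 1e-300) for this. Region, exon and 101-nt windows came from the RefSeq genome and GENCODE M21 gene models. The region was the first of coding sequence, 5′ UTR, 3′ UTR and other exon found in any transcript of the gene. Exon and window came from the transcript with the longest coding sequence that held the site. Windows were folded with ViennaRNA 2.7.2 at 37 °C. Scripts were tested on simulated data.

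The genes named are the 20 largest falls with separate intervals and at least 100 reads in both, the 5 members with most reads, up to 10 members below the GV oocyte with separate intervals, up to 5 genes with most members, members of the gene lists with separate intervals, up to 5 Type II members with separate intervals, and the 3 smallest falls and 3 smallest rises. Galk2, genes tied for most members, further Type II members, neighbouring sites and list members were named after their values were seen. The members and lists were chosen with earlier results of these data known. Alternatives were a coverage minimum of 30 or 100 reads, a fall of at least 5 points, 1 site per gene, reads divided by 5, 99% intervals, CUCCA alone and another choice of transcript.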

Additional observations from a re-analysis of the deposited data

How the results depend on the processing

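Over 10 values and 38 alternatives, 26 stayed within 1.5 times the main count or within the main 95% interval, and 12 moved outside these limits. With at least 100 reads in both lists there were 448 members (16.5% of the sites), 56 with separate intervals, a median fall of 3.30 points and 78.1% in coding sequence. With at least 30 reads, 90.7% of the members listed in GV were below MII. With a fall of at least 5 points there were 415 members (8.26%), with a median GV level of 25.3% and 95.5% below MII. With 99% intervals 56 members had separate intervals, and with reads divided by 5, so that 5 reads count as 1 molecule, 9 had. The Type II share stayed between 7.06 and 9.16%. No replicate could be left out, and no paired analysis was possible because each stage had 1 library. Depth in the embryo limits the falls that can be told from counting error, since the median member had 100 embryo reads, and sites under 10% in the embryo are not in the lists and were not analysed here.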
